A study of Mus musculus with 34 samples.

Results

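Tunicamycin, an antibiotic that blocks N-linked glycosylation, was given to wild-type mice, and messenger RNA was measured in liver 24 hours later. The comparison rests on 12 of the 34 liver samples of the series: 6 from wild-type mice injected with tunicamycin and 6 from wild-type mice injected with its solvent, DMSO. All 12 were taken from male mice 3 months of age, injected into the abdominal cavity and carrying no transgene or knockout named in the labels, which also place them under 1 batch label. The dose, the strain and the time from the DMSO injection to sampling are not given in the sources used here. The labels do not say in words that each sample is a separate mouse, so the p-values measure the spread between these samples. The other samples, also from mice 3 months of age, are livers of wild-type mice given PBS or TNFa, of PiZ mice given PBS and of PiZ mice with a p50 knockout. PiZ mice carry a human transgene for a variant of alpha-1 antitrypsin that polymerizes inside the endoplasmic reticulum (ER), and they are used below as a second kind of ER disturbance. The values are log2 CPM, a gene's share of the reads of its library on a log2 scale, and the 13388 genes above 1 CPM in at least 6 of the 12 libraries were tested.

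Secreted and membrane proteins enter the ER unfolded, and most receive a preassembled sugar tree on asparagine. The first step in building that tree is made by DPAGT1, the enzyme tunicamycin inhibits, so that new glycoproteins misfold. The unfolded protein response reads misfolding through 3 ER membrane sensors: IRE1 (gene Ern1), which splices the mRNA of the transcription factor XBP1, PERK (gene Eif2ak3), which slows translation and raises the transcription factor ATF4 and its target CHOP (gene Ddit3), and ATF6, which is cut to release a transcription factor. XBP1 and ATF6 raise chaperones, folding enzymes and the machinery of ER-associated degradation, while ATF4 and CHOP raise genes of amino acid supply and stress. Hepatocytes make most plasma proteins and are therefore cells with a heavy ER load.

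Promoter sequences are shown first, because the ER stress response element occurred more often in promoters of ER chaperones than in those of all genes tested. The element was searched as CCAAT, any 9 bases and CCACG on both strands. Promoters were taken as 250 bases before to 50 bases after each gene's start, from RefSeq on GRCm38.p6, and 9639 of the 13387 distinct symbols tested matched. The element occurred in 0.207% of these promoters, or 20 genes, in 7.35% of the 136 promoters of genes that rose by at least 3 log2 units, and in 31.8% of the 22 promoters found for the ER chaperones and folding enzymes. The 250 bases before the start of Hspa5, the gene of the main ER chaperone BiP (chr2:34771840-34772089, plus strand), and of Derl3, a channel protein of ER-associated degradation (chr10:75893148-75893397, plus strand), are given with the element in capitals, which in Derl3 lies on the minus strand and so reads in reverse.
Hspa5: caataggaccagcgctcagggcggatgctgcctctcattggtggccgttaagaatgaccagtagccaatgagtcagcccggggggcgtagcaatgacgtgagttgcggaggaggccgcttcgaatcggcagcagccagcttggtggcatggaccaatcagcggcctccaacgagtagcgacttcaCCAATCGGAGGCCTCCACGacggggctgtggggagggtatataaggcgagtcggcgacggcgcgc
Derl3: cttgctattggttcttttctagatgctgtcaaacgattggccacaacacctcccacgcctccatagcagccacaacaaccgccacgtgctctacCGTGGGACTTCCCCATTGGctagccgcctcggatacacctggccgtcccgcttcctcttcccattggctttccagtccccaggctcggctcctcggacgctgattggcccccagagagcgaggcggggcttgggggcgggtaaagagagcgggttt

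For comparison, the element of each of 10 genes is written along its own direction with 10 bases on each side, the element in capitals. These are the 7 chaperone or folding genes with a match, of which Hsp90b1 holds 2, the degradation genes Derl3 and Syvn1, and Zfp57, which encodes a zinc finger protein and rose most among genes with the element that belong to no list.
Hspa5, chr2:34772015-34772053, plus strand: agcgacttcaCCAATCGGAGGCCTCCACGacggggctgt
Hsp90b1, chr10:86705628-86705666, minus strand: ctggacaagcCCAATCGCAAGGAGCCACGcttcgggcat
Hsp90b1, chr10:86705523-86705561, plus strand: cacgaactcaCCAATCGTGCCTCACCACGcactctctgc
Creld2, chr15:88819510-88819548, minus strand: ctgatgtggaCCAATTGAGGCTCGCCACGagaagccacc
Derl3, chr10:75893232-75893270, minus strand: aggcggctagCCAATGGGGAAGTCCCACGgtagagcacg
Pdia6, chr12:17266481-17266519, plus strand: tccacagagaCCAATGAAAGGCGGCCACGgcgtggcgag
Dnajc3, chr14:118937817-118937855, plus strand: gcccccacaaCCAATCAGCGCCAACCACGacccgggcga
Calr, chr8:84847065-84847103, plus strand: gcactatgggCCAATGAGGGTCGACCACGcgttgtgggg
Canx, chr11:50325790-50325828, minus strand: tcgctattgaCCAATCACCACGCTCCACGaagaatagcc
Syvn1, chr19:6046522-6046560, plus strand: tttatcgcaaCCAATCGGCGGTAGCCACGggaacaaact
Zfp57, chr17:37002482-37002520, minus strand: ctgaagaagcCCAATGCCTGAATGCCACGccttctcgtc

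A second motif searched was the composite ATF and C/EBP element TGATGNAAT, which ATF4 is known to bind with a C/EBP partner. It occurred in 0.560% of the promoters of genes tested, in 2.21% of those of genes that rose by at least 3 log2 units, and in 23.1% of the 13 promoters found for cytosolic tRNA synthetases. Its occurrences in Nupr1, a stress-induced chromatin protein, Pycr1, an enzyme of proline synthesis, and Gars, the tRNA synthetase for glycine, are printed in the same way. Another motif, the core TGACGTGG of the unfolded protein response element, was searched on both strands too and occurred in 1.03% of the promoters of genes tested, 2.21% of those of genes that rose by at least 3 log2 units, 9.09% of the 22 of ER chaperones and 15.6% of the 32 of ER to Golgi genes.
Nupr1, chr7:126625563-126625591, plus strand: aagccctgtcTGATGCAATctggcccttt
Pycr1, chr11:120643833-120643861, minus strand: gccctgtgtaTGATGCAATgcacaaggct
Gars, chr6:55037960-55037988, minus strand: gcccggtgcaTGATGAAATagcgcagcca

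Depth, in units of M reads (mega-reads), was 34.3 to 43.8 in the DMSO libraries and 38.8 to 47.8 in the tunicamycin libraries. The 10 genes with most reads took 19.4% to 32.5% of the reads under DMSO and 10.6% to 14.5% after tunicamycin. Because the values are shares of a library, a lower share of some genes means a higher share of others. The median log2 fold change over all genes was 0.38, and -0.07 when every library was shifted to the same median. What part of the 0.38 goes with the top genes was not tested. DMSO 2 stood apart, with 23.4% of its reads from the mitochondrial genome against 4.35% to 5.59% in the other DMSO libraries, and DMSO 1 stood apart in clock genes. For 3 of the tunicamycin libraries, the labels give the column number as the library name of a sample and the column name of a different sample. They could not be tied to a replicate number and are named here by column (1643, 1647 and 1667). Column 1647 is the library with the lowest Atf3, and its value is given for the members where it stood apart or was compared.

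After tunicamycin 6067 genes rose (45.3% of those tested) and 1802 fell (13.5%) at an adjusted p below 0.05 by limma. With the libraries shifted to the same median, 3233 rose (24.1%) and 3913 fell (29.2%). All 3233 also rose and all 1802 also fell in the other fit. The shift lowered every log2 fold change by the same amount, so this agreement was largely fixed in advance and shows no robustness. No gene was called higher in 1 fit and lower in the other. Signs of genes called in 1 fit only could change, as that of Ern1 did. In 4452 genes (33.3%) the values of the groups did not overlap, 3815 of them higher and 637 lower after tunicamycin. A gene below 1 CPM in every library of 1 group passed the filter only if all 6 of the other group were above it. For such a gene the lack of overlap was fixed by the filter. A rise of at least 3 log2 units, or 8-fold, was called for 171 genes and a fall of that size for 69. Throughout, the figure after ± is the standard error of the log2 fold change, with n = 6 and 6, and "shifted" marks the value with libraries at the same median.

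**Figure D1:**
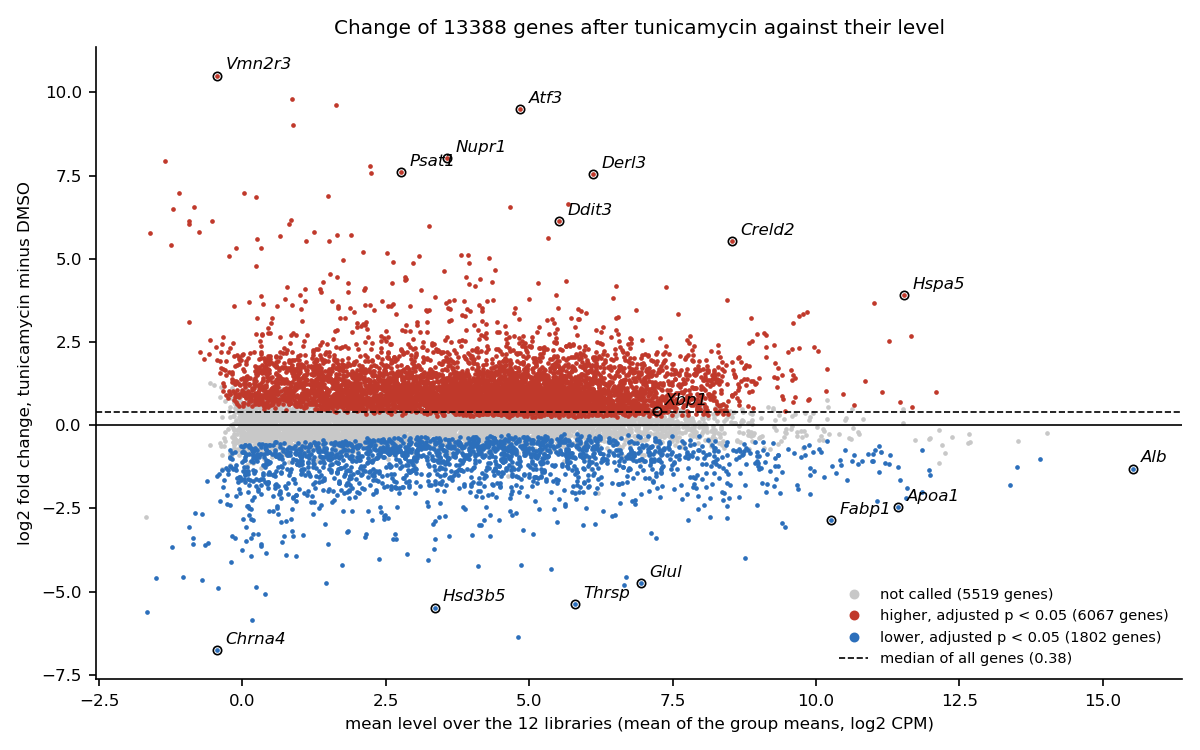
Log2 fold change of each of the 13388 genes (tunicamycin minus DMSO, vertical axis) against its mean level (log2 CPM, horizontal axis), coloured by the limma call, with 16 genes labelled and the median of all genes dashed at 0.38. Rises reach farther than falls, and the chaperone gene Hspa5 lies far above the other genes of its level.

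Among the sensors and transcription factors of the unfolded protein response, 12 of 14 tested genes rose, against 45.3% of all genes. Their median was 1.36, and 9 rose when shifted, against 24.1%. The transcripts of CHOP and ATF3 rose most, those of PERK, ATF6 and ATF4 rose by about 2 log2 units, and those of IRE1 and total XBP1 changed little. These values concern mRNA levels, and the spliced form of Xbp1, the cut form of ATF6 and the phosphorylated form of PERK were not measured.

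Atf3, a stress-induced transcription factor, lay between -0.36 and 1.20 log2 CPM under DMSO (median -0.09) and between 5.70 and 11.30 after tunicamycin (median 10.15). The 5.70 belonged to column 1647, and the next library stood at 9.21, so that every tunicamycin library was above every DMSO library. The log2 fold change was 9.50 ± 0.76 (limma adjusted p = 1.3e-06). Ddit3, which encodes the pro-apoptotic factor CHOP, lay between 2.04 and 2.85 under DMSO (median 2.46) and between 5.22 and 9.99 after tunicamycin (median 9.09). It rose by 6.14 ± 0.65 (limma adjusted p = 1.1e-05), again with its lowest tunicamycin value in column 1647. Ddit3 overlaps the gene Mars on the other strand, and the strand setting of the counting is not given in the sources used here, so reads from the pair cannot be separated here. The same holds for Dpagt1, Herpud1, Psat1, Glul and Srebf1, each of which overlaps a gene on the other strand.

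Atf4 rose by 1.69 ± 0.31 (limma adjusted p = 5.4e-04), from 6.19 to 6.70 under DMSO (median 6.41) to between 6.72 and 9.005 (median 8.20). The groups did not overlap, but column 1647, at 6.72, stood just above the highest DMSO library. Atf6 rose by 2.19 ± 0.25 (limma adjusted p = 1.9e-05), from a DMSO median of 6.10 to a tunicamycin median of 8.42, without overlap. Eif2ak3, the PERK gene, rose by 2.21 ± 0.37 (limma adjusted p = 2.8e-04), from a median of 3.79 to a median of 6.30. Here column 1647, at 4.51, lay under DMSO 6, at 4.63. Wfs1, an ER membrane protein linked to Wolfram syndrome, rose by 3.45 ± 0.47, and Creb3l2, a transcription factor anchored in the ER membrane, by 2.26 ± 0.38.

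Xbp1 was between 6.34 and 7.28 log2 CPM under DMSO (median 7.15) and between 6.94 and 7.79 after tunicamycin (median 7.50). The groups overlapped and the log2 fold change was 0.43 ± 0.20 (limma adjusted p = 0.075), or -0.02 shifted. Ern1, the IRE1 gene, had a log2 fold change of 0.39 ± 0.16 (limma adjusted p = 0.048), which became -0.06 (limma adjusted p = 0.76) when shifted, so its direction depends on the scaling.

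**Figure D2:**
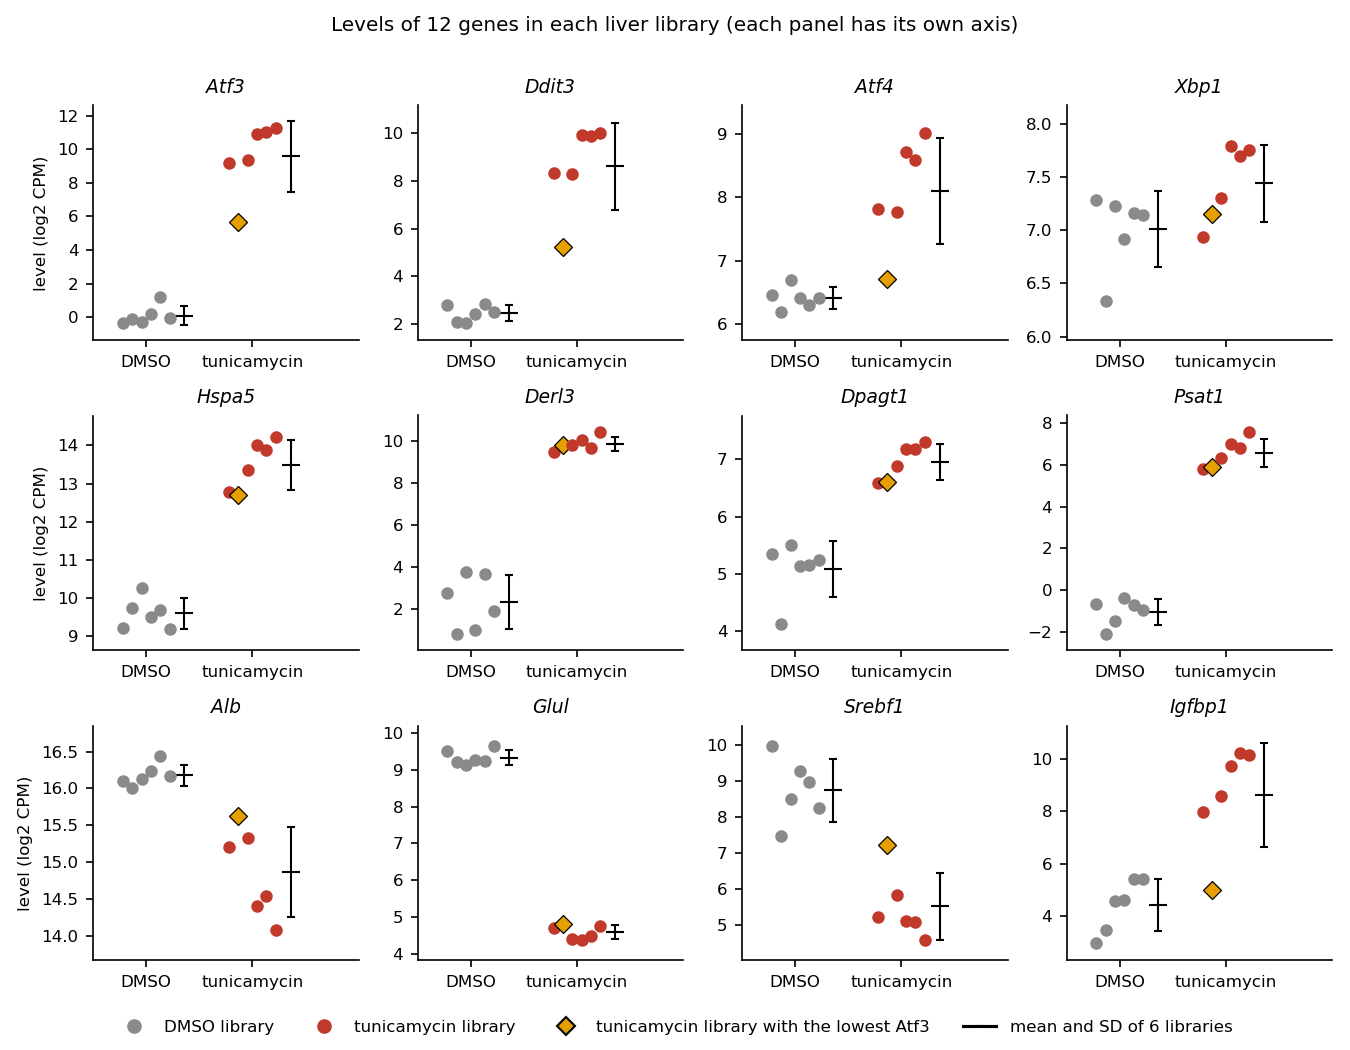
Level (log2 CPM, vertical axis) of 12 genes in each of the 6 DMSO and 6 tunicamycin libraries, with the mean and SD beside each group and the library in column 1647 as a diamond. That library lies apart from the other tunicamycin libraries in Atf3, Ddit3, Atf4 and Igfbp1 among them in Derl3 and Psat1, and close above them in Glul.

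All 28 ER chaperones and folding enzymes rose, against 45.3% of all genes, and 23 rose when shifted, against 24.1%. Their median log2 fold change was 2.51, against 0.38 over all genes, and in 25 of them the groups did not overlap. Hspa5, the gene of BiP, lay between 9.18 and 10.26 under DMSO (median 9.59) and between 12.70 and 14.23 after tunicamycin (median 13.62). All 6 tunicamycin libraries, column 1647 included, were above every DMSO library. The log2 fold change was 3.90 ± 0.30 (limma adjusted p = 9.0e-07).

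The greatest rises on the list were those of Fkbp11, a prolyl isomerase of the ER, and Creld2, an ER-stress-inducible secreted protein. Fkbp11 rose by 5.62 ± 0.33 (limma adjusted p = 1.1e-07), from 1.47 to 3.34 under DMSO to between 7.23 and 8.81. Creld2 rose by 5.54 ± 0.50 (limma adjusted p = 2.9e-06), from 4.90 to 7.25 to between 9.65 and 12.51. Sdf2l1, a partner of the BiP co-chaperones, rose by 4.17 ± 0.42. The list's smallest rises were those of Sil1 at 0.72, a nucleotide exchange factor for BiP, and Erp44 at 0.74, which retains thiol-bearing proteins in the early secretory path.

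In ER-associated degradation, which draws misfolded proteins back to the proteasome, 24 of 26 genes rose, against 45.3% of all genes. With the shift 20 rose and 1 fell, against 24.1% and 29.2%. Derl3 lay between 0.82 and 3.76 under DMSO (median 2.35) and between 9.48 and 10.45 after tunicamycin (median 9.82). It rose by 7.55 ± 0.47 (limma adjusted p = 1.8e-07), and column 1647, at 9.83, was among the other libraries. Syvn1, the ubiquitin ligase HRD1, rose by 3.77 ± 0.37, and Sel1l, its membrane partner, by 2.72 ± 0.24. Herpud1, a regulator of the same ligase, rose by 3.24 ± 0.56 (limma adjusted p = 3.4e-04). Its value in column 1647 was 7.65, inside the DMSO range of 6.48 to 8.12, while the other 5 tunicamycin libraries lay between 10.55 and 11.49. The other 2 members did not pass.

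The translocon and signal peptidase, through which new chains enter the ER and lose their signal sequence, rose in 22 of 23 genes (21 shifted). The median was 1.82, and 45.3% of all genes rose (24.1% shifted). Sec61a1, the pore subunit, rose by 2.23 ± 0.19 from a DMSO range of 6.25 to 7.42 to between 8.97 and 9.52. Ssr3, a subunit of the translocon-associated complex, rose by 2.48 ± 0.14 (limma adjusted p = 6.8e-08). Srprb, a subunit of the signal recognition particle receptor, rose by 2.80 ± 0.21. The groups did not overlap in any of these 3 genes.

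**Figure D3:**
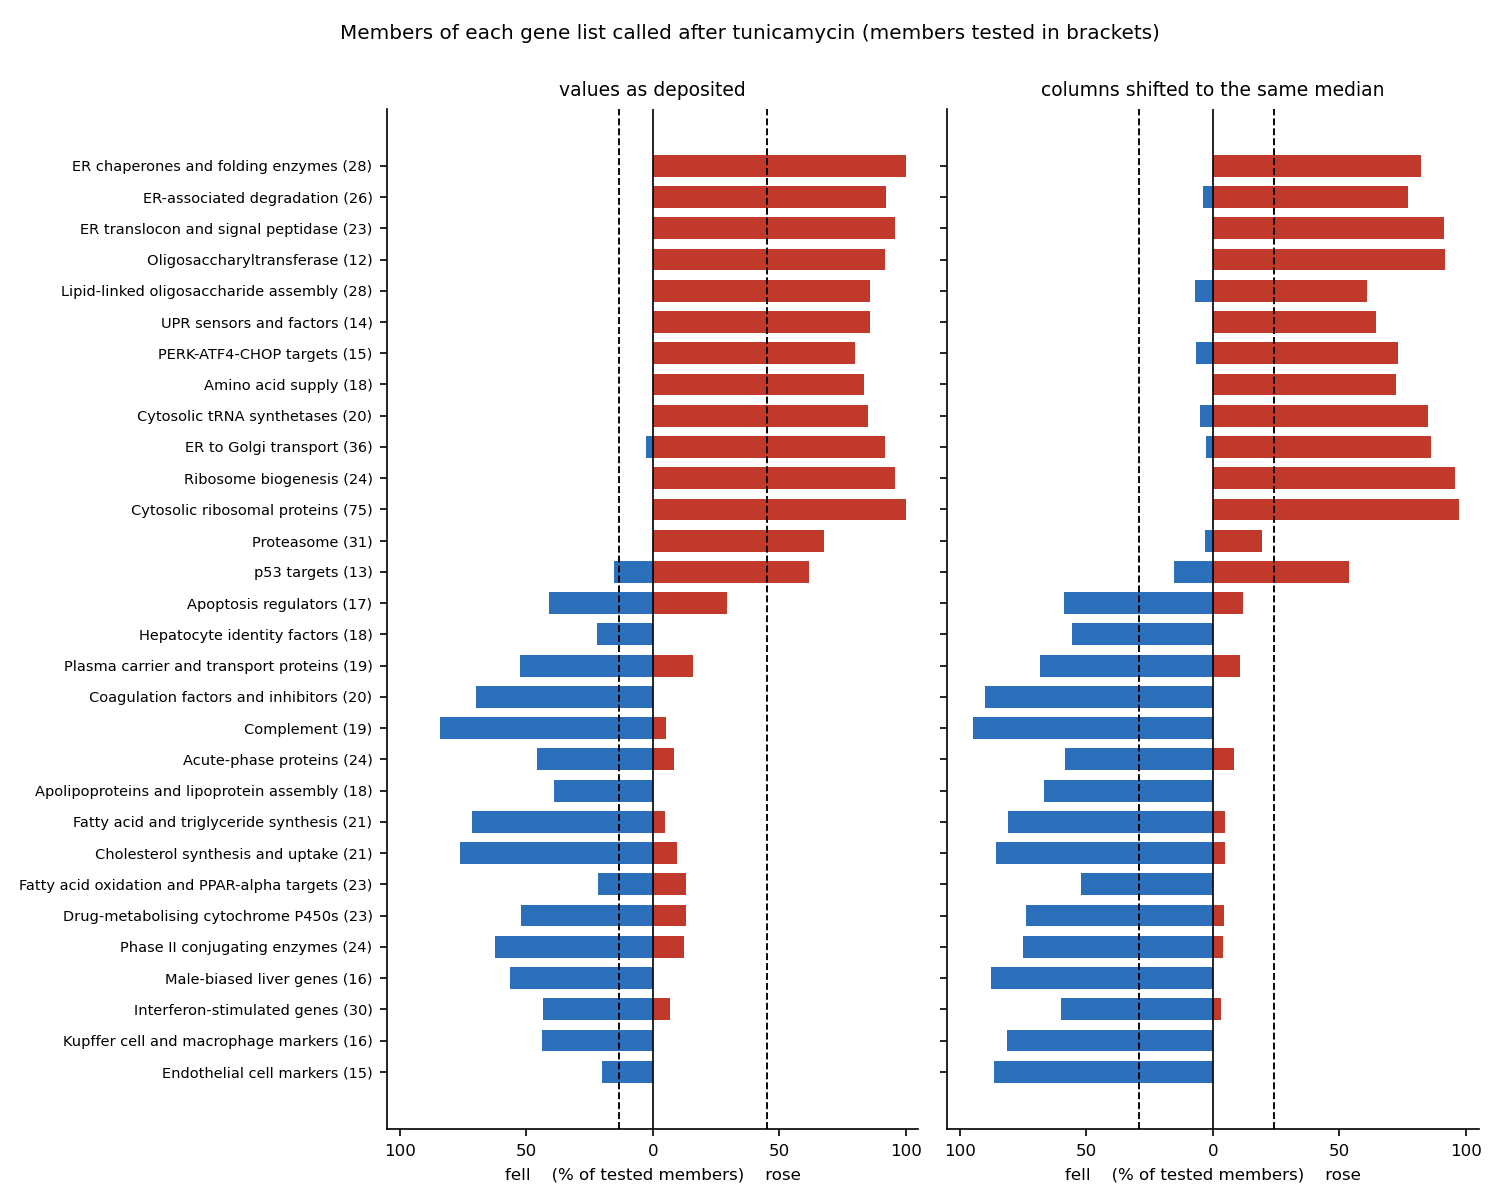
Percent of the tested members of 30 gene lists that rose (right, red) or fell (left, blue) after tunicamycin by limma, with the deposited values and with libraries shifted to the same median, and with the percent over all genes dashed. Lists of the ER, amino acid supply and ribosomes lie to the right and lists of secreted plasma proteins and lipid synthesis to the left in both panels.

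The route that tunicamycin blocks also rose. Dpagt1, the gene of the enzyme the drug inhibits, lay between 4.13 and 5.50 under DMSO (median 5.19) and between 6.59 and 7.30 after tunicamycin (median 7.03). It rose by 1.87 ± 0.22 (limma adjusted p = 2.2e-05), with column 1647 at 6.60 and tunicamycin 1 at 6.59. Of the 28 genes that assemble the lipid-linked sugar tree, 24 rose, against 45.3% of all genes. With the shift 17 rose and 2 fell, against 24.1% and 29.2%. The greatest were Pmm1, a phosphomannomutase, at 3.50 ± 0.26, Gmppb, which makes GDP-mannose, at 3.20 ± 0.33, Alg12, a mannosyltransferase, at 2.32 ± 0.27, and Dhdds, which makes the dolichol carrier, at 2.29 ± 0.21. The promoters of Alg12 and Creld2 share 1 copy of the ER stress response element printed above, since these genes start close together in opposite directions.

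All 4 tested genes of UDP-GlcNAc supply, which makes the sugar that DPAGT1 uses, rose in both fits, against 45.3% of all genes (24.1% shifted). Gfpt1, its rate-limiting first enzyme, lay between 4.88 and 5.33 under DMSO (median 5.16) and between 6.60 and 9.73 after tunicamycin (median 8.82), a rise of 3.47 ± 0.42. The 6.60 was again that of column 1647. Of the 12 oligosaccharyltransferase subunits, which move the tree onto the protein, 11 rose in both fits, among them Ddost at 2.05 ± 0.17 and Krtcap2 at 1.81 ± 0.19. The exception, chosen after its values were seen, was Tusc3, an oxidoreductase subunit. Of 13 genes of glycan trimming and glycoprotein quality control, 11 rose (8 shifted, when 1 fell), led by Uggt2, a sensor of glycoprotein folding, at 2.65 ± 0.30.

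Mfsd2a, a lysolipid transporter that has also been described as an uptake route for tunicamycin into cells, was measured between 2.94 and 6.40 under DMSO (median 4.30) and between 4.38 and 7.61 after the drug (median 5.92). The groups overlapped, with the highest DMSO value in DMSO 1. It rose by 1.60 ± 0.58 (limma adjusted p = 0.029), but the call was lost in the shifted fit (1.15, limma adjusted p = 0.092).

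The targets of the PERK, ATF4 and CHOP branch rose in 12 of 15 genes (11 shifted, when 1 fell). Their median was 2.49, and 45.3% of all genes rose (24.1% shifted, when 29.2% fell). Nupr1 lay between -1.59 and 0.10 under DMSO (median -0.17) and between 5.88 and 8.41 after tunicamycin (median 8.01), a rise of 8.02 ± 0.44 (limma adjusted p = 6.8e-08). Trib3, a pseudokinase that restrains ATF4 and AKT, rose by 6.56 ± 0.54 from a median of 1.28 to a median of 8.57. Gadd45a, a growth-arrest gene, rose by 3.72 ± 0.45. In this list column 1647 was farthest from the others: its median change from the DMSO mean was 0.67 log2 units, against 2.01 to 3.95 in the other tunicamycin libraries.

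Genes of amino acid supply rose in 15 of 18 (13 shifted), against 45.3% of all genes (24.1% shifted), with a median of 2.25. Psat1, an enzyme of serine synthesis, lay between -2.09 and -0.38 under DMSO (median -0.83) and between 5.79 and 7.58 after tunicamycin (median 6.56). It rose by 7.61 ± 0.34 (limma adjusted p = 1.5e-08), and column 1647, at 5.91, was above tunicamycin 1. Aldh1l2, a mitochondrial folate enzyme, rose by 7.57 ± 0.83, Slc7a11, the cystine transporter, by 6.89 ± 0.94, and Aldh18a1, which starts proline synthesis, by 5.08 ± 0.71. Slc7a11 stood at 0.34 in column 1647 and between 3.54 and 6.85 in the other 5 tunicamycin libraries, with a DMSO maximum of -0.96. Psat1, Aldh1l2 and Slc7a11 lay below 1 CPM in every DMSO library, so the filter fixed their lack of overlap. Their calls carry the same limit. Pycr1, whose composite element is printed above, rose by 4.44 ± 0.37 (limma adjusted p = 1.4e-06).

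The cytosolic tRNA synthetases, which load amino acids onto tRNA, rose in 17 of 20 genes, against 45.3% of all genes. With the shift 17 rose and 1 fell, against 24.1% and 29.2%. Wars (tryptophan) rose by 2.49 ± 0.39, Vars (valine) by 2.26 ± 0.35 and Nars (asparagine) by 2.10 ± 0.25. Gars, whose element is printed above, rose by 1.77 ± 0.19.

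The machinery that makes ribosomes rose as a group, where 45.3% of all genes rose (24.1% shifted). Of 24 ribosome biogenesis genes 23 rose in both fits, with a median of 1.58. All 75 tested genes of cytosolic ribosomal proteins rose (73 shifted), with a median of 1.54. Myc, a transcription factor that drives ribosome production, lay between 1.16 and 3.15 under DMSO (median 2.32) and between 3.51 and 6.47 after tunicamycin (median 6.07). It rose by 3.50 ± 0.47 (limma adjusted p = 5.6e-05), with column 1647 lowest and the next library at 5.50. Nop58, a core protein of small nucleolar particles, rose by 2.65 ± 0.42, and Rplp0, a protein of the ribosomal stalk, by 2.21 ± 0.26 from 7.44 to 8.75 to between 9.95 and 11.14. Ribosomal protein genes have many processed copies in the genome, and how reads that fit several copies were counted is not given in the sources used here.

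Transport from the ER to the Golgi rose in 33 of 36 genes and fell in 1 (31 and 1 shifted). The percents over all genes were 45.3% and 13.5% (24.1% and 29.2% shifted). The greatest rise was that of Tmed3, a cargo receptor, at 3.23 ± 0.17 (limma adjusted p = 4.7e-08), from a DMSO range of 3.79 to 4.55 to between 6.81 and 7.58. Mcfd2, a partner of the receptor LMAN1, rose by 2.74 ± 0.19 and Arfgap3, a regulator of vesicle coats, by 2.80 ± 0.43. The single fall was that of Sar1b, the coat GTPase for large cargo such as lipoproteins, named here after its values were seen, while its relative Sar1a rose.

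Other branches of protein handling moved less. Of 31 proteasome genes 21 rose, with a median of 0.42 against 0.38 over all genes, and 6 rose and 1 fell when shifted. Psmd8 rose most, by 1.67 ± 0.19. Of 19 cytosolic and mitochondrial chaperones 10 rose and 1 fell (52.6% and 5.26%, against 45.3% and 13.5% of all genes). The mitochondrial protease Lonp1 led at 2.02 ± 0.16, followed, among others, by the mitochondrial chaperone Hspa9 at 1.41 ± 0.13. Of 25 autophagy genes 11 rose and 2 fell, but 5 rose and 7 fell when shifted, near the percents over all genes in both fits. Ctsl, a lysosomal protease, lay between 8.38 and 9.66 under DMSO and between 10.90 and 11.47 after tunicamycin, a rise of 2.35 ± 0.21 (limma adjusted p = 2.4e-06). Sqstm1, the cargo adaptor p62, rose by 1.73 ± 0.24.

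Among targets of p53, 8 of 13 rose and 2 fell (7 and 2 shifted), against 45.3% and 13.5% of all genes (24.1% and 29.2% shifted). Cdkn1a, the cell cycle inhibitor p21, ranged widely under DMSO, from -0.21 to 4.23 (median 2.13), and lay between 3.42 and 7.86 after tunicamycin (median 6.48). The groups overlapped through column 1647 and DMSO 5, and the rise was 4.17 ± 0.77 (limma adjusted p = 5.4e-04). Trp53inp1, a p53 cofactor, rose by 2.53 ± 0.21 without overlap. The apoptosis regulators split, with 5 of 17 rising and 7 falling (2 and 10 shifted). Bcl2l11, which encodes the pro-apoptotic BIM, rose by 1.70 ± 0.40, whereas Bmf, also pro-apoptotic, fell by 2.38 ± 0.37.

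Circulating factors that the liver releases under stress or growth hormone split too: 6 of 16 tested rose and 7 fell, against 45.3% and 13.5% of all genes. Igfbp1, a stress- and fasting-induced binding protein of insulin-like growth factors, lay between 3.00 and 5.43 under DMSO (median 4.59) and between 5.02 and 10.21 after tunicamycin (median 9.17), a rise of 4.20 ± 0.77 (limma adjusted p = 5.3e-04). Column 1647, at 5.02, lay inside the DMSO range and the other 5 libraries above it. Igfals, which holds the same growth factors in the circulation, showed the opposite pattern: it lay between 5.25 and 7.63 under DMSO (median 7.31) and between 0.99 and 5.66 after tunicamycin (median 2.27), and fell by 4.21 ± 0.67 (limma adjusted p = 1.9e-04). Gdf15, a stress cytokine that lowers appetite, rose by 2.86 ± 0.52 from a median of 2.78 to a median of 5.74. Igf1 itself, chosen after its values were seen, fell by 1.73 ± 0.21 (limma adjusted p = 2.7e-05).

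Fgf21, a hepatokine induced by ATF4, did not pass the filter on low values, so it has no test here and was chosen after its values were seen. It lay between -2.09 and -0.23 log2 CPM under DMSO (8 to 31 reads per library). After tunicamycin it stood at 2.87 to 4.63 in 5 libraries and at -0.17 (42 reads) in column 1647, just above the DMSO range.

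The greatest rise of any named gene was that of Vmn2r3 (chr3:64257215-64289709, minus strand, GENCODE M21), annotated as a vomeronasal receptor, a class of receptors known from the olfactory system. It had 3 reads in the 6 DMSO libraries together and 1046 to 1528 reads in each tunicamycin library. The ratio of the summed CPM was 2125 (95% exact interval 727 to 10306, counting error only), and column 1647 had 1063 reads, against 1046 in tunicamycin 1. The fitted log2 fold change of 10.50 depends on the prior count of the deposited values. Sprr1a, a cornified envelope protein, had 27 reads in all under DMSO and 125 (column 1647) to 9462 reads in the tunicamycin libraries. Bhlha15, or MIST1, a secretory cell transcription factor known as an XBP1 target, lay between -3.06 and -0.65 under DMSO (median -1.44) and between 3.87 and 6.99 after tunicamycin (median 6.56), a rise of 7.78 ± 0.56. Nucb2, a calcium-binding protein of the secretory path, rose by 6.66 ± 0.32 (limma adjusted p = 2.7e-08), from 1.66 to 3.03 to between 7.73 and 9.59. Vmn2r3, Sprr1a and Bhlha15 lay below 1 CPM in every DMSO library. Such genes could enter the test only with all tunicamycin libraries above 1 CPM, so their lack of overlap was fixed by the filter.

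Several lists of differentiated liver function fell more often than all genes did. Alb, the gene of albumin, lay between 16.00 and 16.44 under DMSO (median 16.15) and between 14.09 and 15.63 after tunicamycin (median 14.88). It fell by 1.31 ± 0.31 (limma adjusted p = 0.0031), with the highest tunicamycin value in column 1647. In a bulk sample, fewer cells of a type and less RNA per cell cannot be told apart. Of 19 plasma carrier proteins 10 fell and 3 rose (13 and 2 shifted), against 13.5% of all genes falling. Trf, transferrin, fell by 1.79 ± 0.27, while Serpina7, which carries thyroid hormone, rose by 2.03 ± 0.34.

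The secreted cascades fell more uniformly, where 13.5% of all genes fell and 45.3% rose (29.2% and 24.1% shifted). Of 19 complement genes 16 fell and 1 rose, with a median of -1.25, and 18 fell when shifted. C4b lay between 9.91 and 11.44 under DMSO (median 11.08) and between 7.90 and 9.94 after tunicamycin (median 8.73), and fell by 2.05 ± 0.33, with an overlap only between DMSO 2 and column 1647. C9, a part of the membrane attack complex, fell by 1.79 ± 0.28. Of 20 coagulation factors and inhibitors 14 fell (18 shifted), with a median of -0.74. Proz, the anticoagulant protein Z, fell by 2.24 ± 0.28 and F7, which starts the tissue factor pathway, by 1.64 ± 0.30. Of 24 acute-phase genes 11 fell and 2 rose, in a list where DMSO 5 stood above the other DMSO libraries (median over members 1.15 above the DMSO mean, against at most 0.16). Hp, haptoglobin, fell by 2.28 ± 0.41 from 11.06 to 13.57 to between 8.98 and 10.78. Apcs, serum amyloid P, rose by 2.55 ± 0.38 from 4.67 to 7.05 to between 7.22 and 9.26.

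Of 18 hepatocyte identity factors 4 fell (10 shifted), against 13.5% of all genes (29.2% shifted). These were Onecut1 by 1.84 ± 0.58, Nr0b2 by 1.62 ± 0.38, Nr1i3 by 1.59 ± 0.40 and Ppara by 1.02 ± 0.30. Hnf4a, a central hepatocyte factor named here after its values were seen, had a log2 fold change of 0.28 ± 0.14 (limma adjusted p = 0.095), or -0.18 shifted.

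Lipid synthesis fell. Of 21 genes of fatty acid and triglyceride synthesis 15 fell and 1 rose (17 and 1 shifted), with a median of -1.16. The percents over all genes were 13.5% and 45.3% (29.2% and 24.1% shifted). Srebf1, the transcription factor that drives the pathway, lay between 7.47 and 9.98 under DMSO (median 8.73) and between 4.59 and 7.23 after tunicamycin (median 5.17). It fell by 3.23 ± 0.45 (limma adjusted p = 7.9e-05), and column 1647, at 7.23, came closest to the DMSO libraries. Thrsp, a lipogenic nuclear protein, fell by 5.39 ± 0.41 from a median of 8.27 to a median of 2.95. Acacb, an acetyl-CoA carboxylase, fell by 2.96 ± 0.25, and its promoter also holds the ER stress response element. Of the 20 genes with the element, Acacb fell, 17 rose and the other 2 did not pass. When shifted, 14 rose and 2 fell.

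Of 21 genes of cholesterol synthesis and uptake 16 fell and 2 rose (18 and 1 shifted), with a median of -1.07, among them Nsdhl, a sterol synthesis enzyme, by 2.00 ± 0.21 and Stard4, a sterol carrier, by 1.95 ± 0.27. Of 18 apolipoprotein and lipoprotein assembly genes 7 fell (12 shifted), including Apoa1, the main protein of HDL, which fell by 2.47 ± 0.36 from 12.05 to 12.97 to between 9.23 and 11.79. Fatty acid oxidation was mixed, with 3 of 23 rising and 5 falling, the greatest fall being that of Fabp1, the liver fatty acid binding protein, by 2.86 ± 0.40. On the lipid droplet list 4 of 14 rose and 1 fell. Over all genes 45.3% rose and 13.5% fell (24.1% and 29.2% shifted). Plin2, a droplet coat protein, lay between 7.81 and 9.12 under DMSO (median 8.88) and between 9.10 and 11.88 after tunicamycin (median 10.53), and rose by 1.66 ± 0.42 (limma adjusted p = 0.0043).

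The most separated fall was that of Glul, glutamine synthetase, which in liver is made in the hepatocytes around the central vein. It lay between 9.13 and 9.64 under DMSO (median 9.24) and between 4.38 and 4.80 after tunicamycin (median 4.59), a fall of 4.74 ± 0.13 (limma adjusted p = 5.8e-11). Column 1647, at 4.80, was the highest of the 6, close above the next at 4.76, and the SD over the tunicamycin libraries was 0.19. Lgr5, a Wnt pathway receptor found in the same zone, fell by 3.90 ± 0.30 from a median of 2.71 to a median of -1.29. Lgr5 lay below 1 CPM in every tunicamycin library, so the filter fixed its lack of overlap and its call carries that limit. Of the other central vein genes, Cyp2e1 fell by 1.64 ± 0.39 and Cyp1a2 by 2.39 ± 0.38, with column 1647 the highest tunicamycin library in both. Of 17 urea cycle and nitrogen genes, Glul among them, 4 fell and 1 rose, against 13.5% and 45.3% of all genes. Otc, a urea cycle enzyme, fell by 1.55 ± 0.26.

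Of 23 drug-metabolising cytochrome P450 genes 12 fell and 3 rose (17 and 1 shifted). For this list and the next, 13.5% of all genes fell and 45.3% rose (29.2% and 24.1% shifted). Cyp2b10, known to be induced through the receptor CAR, rose by 3.38 ± 0.55, from 2.65 to 5.19 to between 5.61 and 8.80. Of 24 phase II conjugating enzymes 15 fell and 3 rose, led by Gsta3 at -2.40 ± 0.29. Of 17 bile acid genes 7 fell and 3 rose (10 fell when shifted), led by Slc10a1, the uptake carrier NTCP, at -2.22 ± 0.22 from a median of 8.92 to a median of 6.66. Of 18 genes of gluconeogenesis and glycogen 6 fell and 5 rose, against 13.5% and 45.3% of all genes. Gys2, liver glycogen synthase, fell by 1.50 ± 0.23 and Tat, a glucocorticoid-responsive aminotransferase, rose by 1.32 ± 0.23. Genes higher in male than in female liver fell in 9 of 16 (14 shifted), led by Hsd3b5, a steroid dehydrogenase, at -5.48 ± 0.79. Of the NRF2 targets 6 of 19 rose and 7 fell, against 45.3% and 13.5% of all genes. Several of these genes (Cyp2c50, Cyp4a12a, Ces1c, Ces1d and Ces1g) belong to families of near-identical copies and their values are uncertain for that reason.

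Of 17 tested clock genes 6 rose and 3 fell (35.3% and 17.6%), against 45.3% and 13.5% of all genes. DMSO 1 lay apart from the other DMSO libraries in several of these clock genes. Per3 stood at 6.21 in DMSO 1 against 2.10 to 2.83 in the other DMSO libraries and -0.00 to 0.98 after tunicamycin. Arntl stood at 1.31 in DMSO 1 against 4.74 to 5.32, and between 5.53 and 6.20 after tunicamycin. Per1, which also responds to stress hormones, rose by 3.53 ± 0.72, with DMSO 1 at 5.20 and column 1647 at 3.37 overlapping. Without DMSO 1 and 2, 8 clock genes rose and 4 fell, against 45.1% and 17.3% of all genes. The hour of sampling is not given in the sources used here, and its part in these values was not tested.

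Of 20 tested NF-kB targets 3 rose and 3 fell (2 and 11 shifted), against 45.3% and 13.5% of all genes (24.1% and 29.2% shifted). Nfkb1, whose product p50 is the factor knocked out elsewhere in the series, lay between 4.64 and 5.32 under DMSO and between 4.87 and 5.33 after tunicamycin, with a log2 fold change of -0.01 ± 0.14 (limma adjusted p = 0.95), or -0.46 (limma adjusted p = 0.0024) shifted. Cxcl10, a chemokine, rose by 3.72 ± 0.74 (limma adjusted p = 8.8e-04), with column 1647, at 0.81, inside the DMSO range of -0.62 to 1.73. Of 30 interferon-stimulated genes 13 fell and 2 rose (18 and 1 shifted), with Ifit3 falling by 1.67 ± 0.23 and Mx2 rising by 2.38 ± 0.46.

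Markers of other cells were counted beside these results. The summed CPM of Kupffer cell and macrophage markers was 398 to 1193 under DMSO and 356 to 479 after tunicamycin, and 7 of 16 tested markers fell (12 without DMSO 1 and 2, when 17.3% of all genes fell). In these too DMSO 5 was highest, with a median 1.08 above the DMSO mean. Endothelial markers summed to 372 to 636 and to 434 to 521 CPM, with 3 of 15 lower (8 without DMSO 1 and 2, and 13 shifted), and stellate cell markers to 296 to 476 and to 325 to 378 CPM. Over all genes 13.5% fell, or 29.2% shifted. Neutrophil markers summed to at most 16.9 CPM and lymphocyte markers to at most 42.9 CPM in any library. Hepatocyte markers, all 11 above 1 CPM in every library, summed to 112239 to 149350 CPM under DMSO and to 33864 to 90072 CPM after tunicamycin. Alb, with a DMSO mean of 16.18 log2 CPM, weighs most in that sum. Of the 11 markers 5 fell (8 shifted) and 6 were not called. Bile duct markers summed to 309 to 662 and to 721 to 1677 CPM. That rise lay in the keratin genes Krt8 (1.54 ± 0.29), Krt18 (1.11 ± 0.20) and Krt23 (2.87 ± 0.40), while Krt19, Krt7, Epcam and Sox9, which define bile duct cells, did not pass the test.

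Pancreatic enzyme transcripts were present in 5 of the 6 tunicamycin libraries. The summed CPM of pancreatic acinar markers was 10.8 to 28.5 under DMSO, 10.8 in tunicamycin 1, 101 in column 1647, 1560 in column 1667, 132 in column 1643, 679 in tunicamycin 5 and 66.8 in tunicamycin 6. Prss2, a trypsinogen that belongs to a family of near-identical copies, had no read in tunicamycin 1 and 171 to 5773 reads in the other 5. The acinar pancreas is itself rich in ER genes. The results were also read in tunicamycin 1, where these markers were at the DMSO level, a choice made after the values were seen. There Hspa5 stood at 12.77, Derl3 at 9.48 and Psat1 at 5.79, all above every DMSO library. With tunicamycin 1 alone against the 6 DMSO libraries, 23 of 28 chaperones, 19 of 23 translocon genes and 9 of 15 targets of the PERK branch rose by limma, and 4 of 20 coagulation genes and 7 of 19 complement genes fell. Over all genes 10.8% rose and 3.56% fell in that fit. Its spread comes from the DMSO libraries only, since the single tunicamycin library is assumed to vary as they do. A single library cannot settle what part the pancreatic transcripts had in the other results, and that part was not tested.

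The 6 tunicamycin libraries differed in extent. The first principal component, with 69.3% of the variance, placed the DMSO libraries between -83.8 and -56.6, column 1647 at 5.59, tunicamycin 1 at 40.3, column 1667 at 50.5, tunicamycin 5 at 87.2, column 1643 at 92.2 and tunicamycin 6 at 105.9. Among the 171 genes that rose by at least 3 log2 units, column 1647 was the least changed of the 6 libraries in 148, yet it was above every DMSO library in 151. Its median change over these genes was 2.29 log2 units, against 3.34 in tunicamycin 1, 3.67 in column 1667, 4.61 in tunicamycin 5, 4.76 in column 1643 and 4.99 in tunicamycin 6. Tunicamycin 6 was the most changed in 127 of them. Among the 69 genes that fell as far, column 1647 was the least changed in 57, with a median change of 2.03 against 3.37 to 4.86. These genes were chosen from the same libraries, so the counts describe them and test nothing.

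The gap between column 1647 and the others was not the same in all groups. Over the ER chaperones its median change was 2.12, against 2.48 to 2.71 in the other 5. Yet it was the lowest tunicamycin library in Hspa5, Sdf2l1, Fkbp11 and Creld2. Its value minus the median of the other 5 was -1.19, -1.21, -1.31 and -2.31 log2 units in these genes. In Glul, Derl3, Psat1, Dpagt1 and Vmn2r3, grouped here after their values were seen, it lay with or close to the other 5. In the targets of the PERK branch and in Ddit3, Atf3, Igfbp1 and Fgf21 it lay far below them. Of the 217 genes that the naming rule selects, its value was within the range of the other 5 tunicamycin libraries in 40 and outside the DMSO range in 158. Leaving it out gave 6118 genes higher and 2027 lower, against 6067 and 1802 with it.

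**Figure D4:**
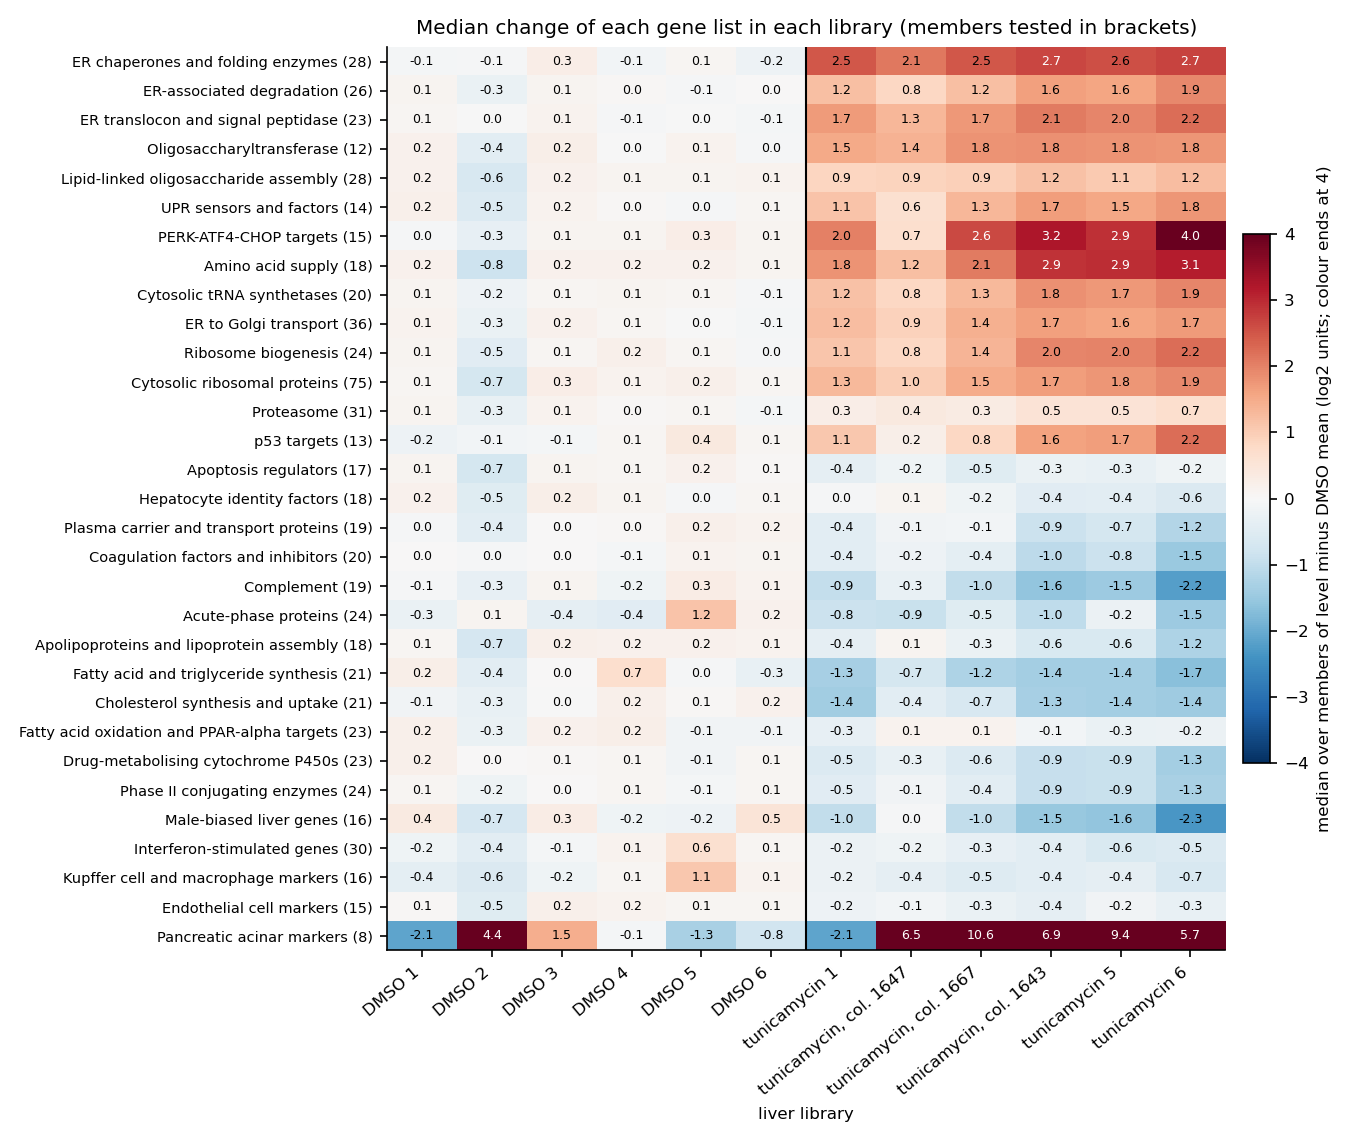
Median over the members of each gene list of the level minus the DMSO mean (log2 units, colour and printed value), for each of the 12 libraries. In column 1647 the chaperone list is at 2.1 against 2.5 to 2.7 in the other tunicamycin libraries, while the PERK-ATF4-CHOP list is at 0.7 against 2.0 to 4.0, and the pancreatic markers are low in tunicamycin 1.

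A second ER disturbance in the series is the polymerizing protein of PiZ mice, measured as 5 PiZ and 6 wild-type livers given PBS, also from male mice 3 months of age. These libraries carry another batch label, so the effects, not the levels, were compared: the PiZ effect was subtracted from the tunicamycin effect in 1 limma fit of both tables over 12451 genes. Of these, 1101 (8.84%) had a higher and 934 (7.50%) a lower effect under tunicamycin. Wild-type PBS 2 stood apart, with 10.2 M reads of which 72.2% lay on protein-coding genes, and without it 2278 (18.3%) were higher and 2807 (22.5%) lower. Treatment, genotype, injection and batch label all differ between the effects and cannot be told apart.

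Of the 28 ER chaperones, 14 had a higher effect under tunicamycin (23 without PBS 2), against 8.84% of all genes (18.3%). The median effect was 2.51 under tunicamycin and 1.44 in PiZ, or 0.89 without PBS 2. Hspa5 rose by 3.90 ± 0.41 in this fit under tunicamycin and by 1.67 ± 0.43 in PiZ, a difference of 2.23 ± 0.59 (limma adjusted p = 0.012). The difference was 3.54 ± 0.46 for Fkbp11, 3.12 ± 0.79 for Creld2 and 2.06 ± 0.49 for Hsp90b1, the ER paralog of HSP90. For Canx, calnexin, it was 0.22 ± 0.48 (limma adjusted p = 0.80), a difference that did not pass the threshold and does not show that the effects were alike.

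**Figure D5:**
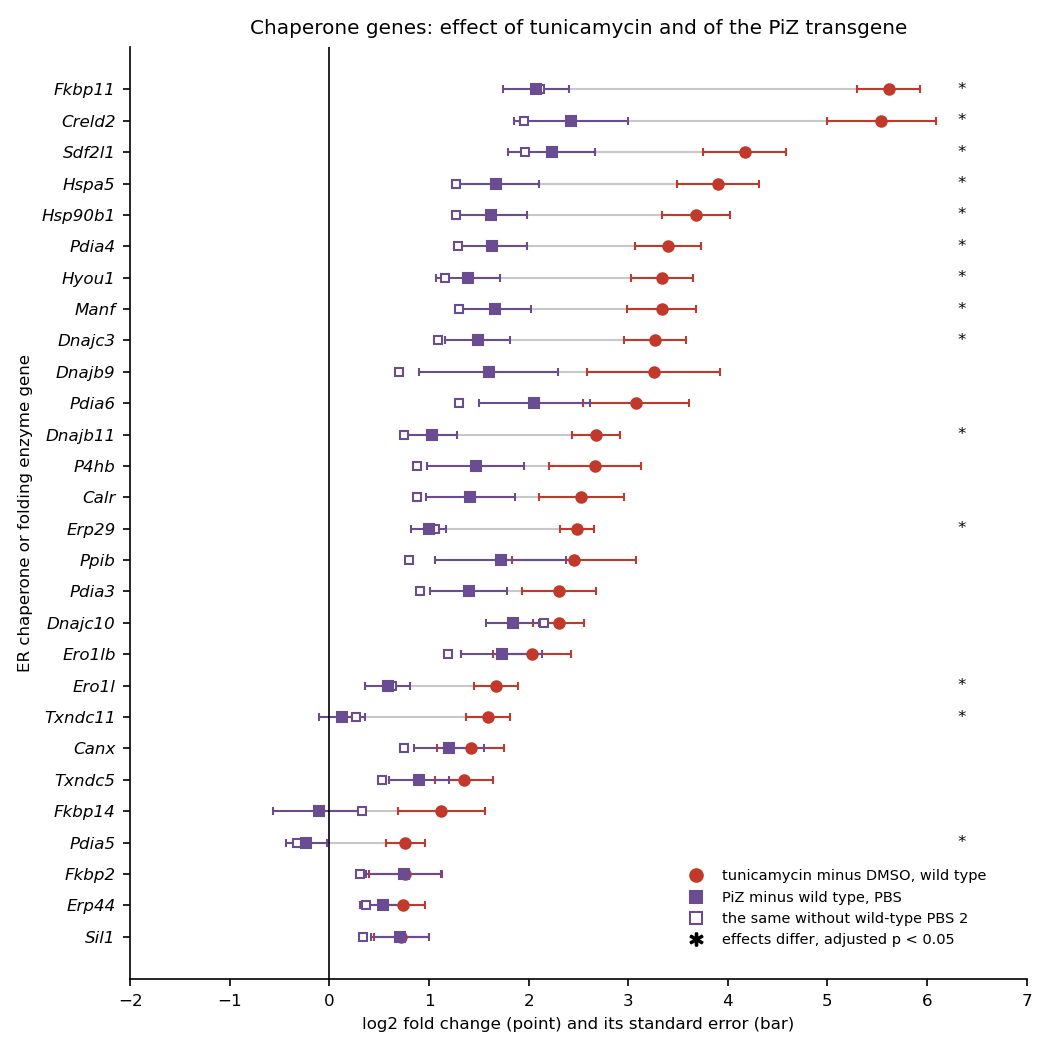
Log2 fold change with its standard error (horizontal axis) of each of the 28 ER chaperone and folding genes, for tunicamycin against DMSO and for PiZ against wild type under PBS, with the PiZ value without wild-type PBS 2 as an open square. Fkbp11, Creld2 and Sdf2l1 lie farthest to the right under tunicamycin, and the 14 genes whose effects differ are starred.

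Among the targets of the PERK branch 8 of 15 had a higher effect under tunicamycin (10 without PBS 2), against 8.84% of all genes (18.3%). Atf3 changed by 9.50 under tunicamycin and by 2.05 in PiZ, a difference of 7.44 ± 1.26, and ribosome biogenesis genes had a higher effect in 15 of 24. The greatest difference in this direction was that of Gdpd3, a lipid phosphodiesterase (1.02 against -6.90, difference 7.92 ± 0.53), followed by Camk2b, a calcium-dependent kinase (7.62 ± 1.07), Atf3, the steroid enzyme gene Cyp17a1 (6.19 ± 0.66) and Mfsd2a (1.60 against -4.10, difference 5.71 ± 0.95). In the opposite direction, the effect under tunicamycin was lower for 21 of 30 interferon-stimulated genes (26 without PBS 2), whose medians were -0.41 and 1.45. It was also lower for 8 of 20 NF-kB targets (16 without PBS 2) and 13 of 17 Kupffer cell markers (16), with 1 such marker higher. The same held for 11 of 24 acute-phase genes (14) and 10 of 19 complement genes (13). Of all genes 7.50% were lower, or 22.5% without PBS 2. The single genes farthest apart were Serpina3f, a serine protease inhibitor (-1.31 against 7.95), and Lcn2, an iron-scavenging acute-phase protein (-1.26 against 6.65).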

How the data were processed

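RNA (polyA) from 34 mouse livers was sequenced, and the 12 libraries described come from 1 deposited table. The submitters' processing notes name GRCm38 and the tools STAR, Subread featureCounts, edgeR, DRAGEN and bcl2fastq; settings and strand are not given in the sources used here. The values deposited by the authors are log2 CPM with a small prior, and 1 read per library was recovered from their steps (tolerance 0.1 read) to give depth. Each table holds 55774 rows for 55487 gene IDs, and 1 row per ID was kept.

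Genes above 1 CPM in at least 6 libraries were tested with limma 3.58.1 (lmFit, eBayes with trend, R 4.3.3), two-sided, adjusted by Benjamini-Hochberg over 13388 genes at 0.05. The same fit was made with columns shifted to the same median. The PiZ effect was subtracted in 1 fit of both tables, over genes above 1 CPM in at least 5 libraries of each table. The fit was tested on simulated data with 200 changed genes. The noise there was drawn for each gene on its own, without outlying libraries or shifts of whole libraries, so the simulation does not cover these. Gene positions come from GENCODE M21, promoters from RefSeq (GRCm38.p6).

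The members, 51 gene lists and tests were chosen with earlier results of these data known. The rule for named genes takes the 15 greatest rises and falls (called, without overlap, no predicted names, and a group mean of 2 log2 CPM or more), up to 4 called members per list with the greatest change, 12 genes of the response and the drug, and, for PiZ, the 5 greatest differences each way and the chaperones. Of the 217 so named, 68 overlap a gene on the other strand. Genes with a printed element, list members that did not pass and other genes said to be chosen after their values were seen fall outside it. Alternatives were another pseudocount, other filters, quantile normalization, other moderation, a threshold of 0.01, and leaving out libraries. Pairing by replicate number could be checked only for the numbers 1, 5 and 6. The deviations of tunicamycin and DMSO libraries with these numbers correlated at -0.04, 0.13 and -0.08, against a limit of 0.1. Number 5 alone passed that limit, and the main fit used no pairing. No 2 libraries agreed within sampling noise. Some results that the rule for named genes selects are not reported here.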

Additional observations from a re-analysis of the deposited data

Results flagged for a closer look

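In groups of 6 libraries, a library was singled out where its gap to the nearest other library took up more of the group's range than Dixon's 95% limit allows. Chance alone does this in about 1 of 20 groups. Over the 224 groups of the genes named here it happened in 36, and in 3 more for measures of whole libraries. Of these 39, 23 were DMSO 2 and 11 were the tunicamycin library in column 1647.

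Column 1647 was far below the other 5 tunicamycin libraries in Atf3 (5.70), Ddit3 (5.22), Sprr1a (1.39), Herpud1 (7.65), Gadd45a (3.13), Myc (3.51), Trp53inp1 (6.80), Tat (10.84) and Arntl (5.53). It was far above them in Ppara (6.85) and Nsdhl (4.61), which fell in the group, all in log2 CPM.

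DMSO 2 took 23.4% of its reads from the mitochondrial genome and 32.5% from its top 10 genes. It was lowest of the DMSO libraries in the ER and glycosylation genes Dpagt1 (4.13 log2 CPM), Sec61a1 (6.25), Dhdds (4.19), Ddost (6.00) and Wfs1 (3.21). The same was true of Aldh1l2 (-3.89), Wars (3.11), Vars (4.50), Rplp0 (7.44), Sqstm1 (7.62), Psmd8 (6.13) and Bcl2l11 (0.99). Among liver genes it was lowest in Igfals (5.25), Nr0b2 (4.34), Nr1i3 (3.81), Proz (9.17), F7 (5.97), C4b (9.91) and Plin2 (7.81). It was highest in Ctsl (9.66) and Cyp4a12a (9.55).

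DMSO 1 was far from the others in Per3 (6.21 log2 CPM) and Arntl (1.31), DMSO 5 in Atf3 (1.20) and DMSO 3 in Sel1l (8.15). Tunicamycin 1 took 8.24% of its reads from the mitochondrial genome, against 3.57% to 4.51% in the other tunicamycin libraries.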

How the results depend on the processing

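The counts of 6067 genes higher and 1802 lower moved with scaling: 3233 and 3913 with libraries shifted to the same median, 3534 and 3547 with quantile normalization, 3445 and 4271 shifted without column 1647, and 3687 and 4061 shifted without DMSO 1 and 2. The share of calls that were higher was 77.1%, 45.2% shifted and 49.9% with quantiles. Tunicamycin 1 alone, assumed to vary like the DMSO libraries, gave 1451 and 477, and a threshold of 0.01 gave 1147 lower. Leaving out each replicate in turn gave 5417 to 6323 higher and 1512 to 2466 lower. A fit with a replicate block could use only the numbers 1, 5 and 6, and gave 4759 higher and 1761 lower, against 5173 and 1856 for the same 6 libraries without it. The 2035 genes whose effects differed from PiZ became 5085 without wild-type PBS 2, 5587 when the libraries were then shifted, and 5300 when DMSO 1 and 2 were left out as well; leaving out each replicate in turn gave 1550 to 5085. Of 212 called genes named by the rule, 134 kept direction and call in each alternative. The log2 fold change of Ern1 reversed: -0.063 shifted, -0.017 with quantiles, -0.14 shifted without column 1647 and -0.086 shifted without DMSO 1 and 2. In tunicamycin 1 alone, the pancreatic genes Prss2 (-1.81), Cpa1 (-2.28), Cel (-1.95) and Pnlip (-2.80) reversed. The settings that leave out DMSO 1 and 2, or keep tunicamycin 1 alone, were chosen after seeing the data.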
